A study of Mus musculus with 6 samples.

Results

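*Rogdi*, *Dmxl1*, *Dmxl2* and *Wdr7* are the 4 mouse genes of the rabconnectin-3 complex, a set of proteins that attach to the vacuolar proton pump. They were picked by name from the 31169 genes of a retinal count table and had been chosen by the difference between saline and microbead retina, with earlier results of these data known. All 4 passed the filter on low counts, which left 17707 genes to test. Because the injection contrast chose them, their differences between the groups are given as a description with no test.

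The vacuolar ATPase (V-ATPase) is a proton pump driven by ATP. Its V1 sector, on the cytosolic side, splits ATP, and its V0 sector carries protons through the membrane. The pump acidifies lysosomes and endosomes, and in neurons it builds the proton gradient that loads transmitter into synaptic vesicles. Cells switch it off by releasing V1 from V0, and the complex known as RAVE in yeast and rabconnectin-3 in animals helps to join the sectors again. *Dmxl1* and *Dmxl2* encode large WD-repeat proteins of the alpha type, related to yeast Rav1, and *Wdr7* encodes the beta protein. *Rogdi* encodes a small protein related to yeast Rav2, and loss of human ROGDI causes Kohlschütter-Tönz syndrome, with epilepsy and defective tooth enamel. DMXL2 and WDR7 were purified from synaptic vesicles as partners of the proteins that switch Rab3, a GTPase of vesicle release.

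RNA sequencing of whole retina was compared between 3 saline and 3 microbead libraries from C57BL/6 mice 2 months old. Each mouse had received, at 1 month of age, an injection into the anterior chamber of 1 µL of saline or of microbeads 15 µm in diameter, which block the outflow of fluid and raise intraocular pressure, and the tissue was taken 4 weeks later. No genotype other than the strain is given, and both groups were injected. According to the methods of the study the mice were male and both eyes of an animal received the same agent. The volume is that of the sample records, and the methods of the study name a larger one and its account of the sequencing more retinas per group than the 3 libraries analysed here. The sources do not tie each library to an animal, so each was taken as 1 replicate, and the errors measure the spread between these libraries. Total counts ran from 36085737 to 46481382 in the saline libraries and from 13574949 to 19834366 in the microbead libraries. A count of 3, taken as the floor of detection, was worth 0.0622 to 0.217 CPM (counts per 1000000 counts of the library), far below every member. The library names in the sample records (not the sample titles, which run in 1 numbering) form 2 series, 1 for each injection, so that injection and naming series cannot be told apart here. The mitochondrial share of the counts was 3.19% to 3.57% in saline and 8.90% to 10.6% in microbead libraries, and its part in the results below was not tested. Rod markers, the most abundant of the cell type markers, summed to between 61065 and 81407 CPM in saline and between 56671 and 69776 CPM in microbead libraries, as is usual for retina. In such bulk samples, fewer cells of a type and less RNA per cell cannot be told apart.

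The 4 genes differ in size and in the DNA before their starts. On GRCm38, *Rogdi* (ENSMUSG00000022540.16) is a compact gene on the minus strand of chromosome 16, from 5008730 to 5013553, with 11 exons in its principal transcript and a protein of 287 residues. *Dmxl2* (ENSMUSG00000041268.17) lies on the minus strand of chromosome 9, from 54365158 to 54501626, with 44 exons and a protein of 3054 residues. The summed exons of *Rogdi* cover 2343 bases, against 13285 for *Dmxl2*, 21923 for *Dmxl1* and 10188 for *Wdr7*.

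*Rogdi* was the gene with the largest difference, and *Dmxl2* the most abundant of the other 3 per length. The upstream sequences printed are theirs, as the 2 members matched in the promoter table, and the sequences differ in composition. They are the 250 bases before the RefSeq start on GRCm38.p6, chr16:5013554-5013803 and chr9:54501627-54501876, read 5′ to 3′ on the minus strand of the chromosome, and capitals mark the motif matches given below.
Rogdi: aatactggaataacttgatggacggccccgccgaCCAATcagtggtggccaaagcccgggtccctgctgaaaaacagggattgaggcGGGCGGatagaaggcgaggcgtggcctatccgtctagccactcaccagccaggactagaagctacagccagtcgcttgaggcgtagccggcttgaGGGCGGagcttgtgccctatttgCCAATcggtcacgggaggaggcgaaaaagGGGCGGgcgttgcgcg
Dmxl2: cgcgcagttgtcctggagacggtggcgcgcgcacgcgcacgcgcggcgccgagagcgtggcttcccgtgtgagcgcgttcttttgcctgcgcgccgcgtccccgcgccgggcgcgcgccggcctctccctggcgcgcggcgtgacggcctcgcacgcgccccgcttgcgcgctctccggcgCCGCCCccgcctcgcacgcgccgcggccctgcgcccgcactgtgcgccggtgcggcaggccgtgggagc
*Dmxl1* and *Wdr7* were not among the 2 members matched in the promoter table. The motifs searched on both strands, in these bases and the 50 after the start, were the Sp1 box GGGCGG, the CCAAT box CCAAT, the E-box CACGTG, the cAMP response element TGACGTCA and the photoreceptor Crx motif TAATCC. None of these motifs holds another, and no matches overlapped. The window of *Rogdi* held 3 Sp1 boxes, which begin at positions -163, -68 and -16 relative to the start, and 2 CCAAT boxes, at -216 and -45. The window of *Dmxl2* held 1 Sp1 box, on the opposite strand at position -69. Neither window held the other 3 motifs. Of 32851 mouse promoter windows, 35.7% held an Sp1 box, 37.4% a CCAAT box, 7.15% an E-box, 1.79% a cAMP response element and 7.06% a Crx motif. Among 24 windows of 19 V-ATPase subunit genes, 17 (70.8%) held an Sp1 box, 7 (29.2%) a CCAAT box, 4 (16.7%) an E-box, 2 (8.33%) a Crx motif and 0 a cAMP response element. The GC content was 61.3% with 23 CG pairs for *Rogdi* and 80.7% with 63 CG pairs for *Dmxl2*, against a median of 52.7% over all windows. These matches describe letters only.

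*Rogdi* was the only member with higher values in every microbead library than in any saline library. Its level, in CPM of the scaled library size, was 104.9, 93.03 and 89.99 CPM in saline replicates 1 to 3 and 325.2, 273.7 and 337.3 CPM in microbead replicates 1 to 3. Every microbead library stood above every saline library, and the lowest microbead value was 2.61 times the highest saline value. The means were 95.97 ± 7.88 CPM in saline and 312.1 ± 33.8 CPM in microbead retina (SD, n = 3 each). The log2 fold change was 1.70 with a standard error of 0.17 and a 95% interval of 1.32 to 2.09, a 3.25-fold higher level. Among all genes tested, 97.2% had a smaller log2 fold change. Of the 714 genes at least as abundant as *Rogdi* by mean CPM over both groups, itself included, 12 had a larger one. This mean includes the microbead libraries, where *Rogdi* was higher. Since the contrast chose *Rogdi*, its rank is a description and no support for a difference. The raw counts, 3949, 4486 and 3154 in saline and 6319, 3790 and 5192 in microbead libraries, were of like size although the microbead libraries held fewer counts in all. With at least 3154 counts in each library, the counting error was at most 1.78%, and the spread between libraries set the error.

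*Wdr7*, which encodes the beta protein, was the only member with lower values in every microbead library. The gene (ENSMUSG00000040560.9) spans 63708685 to 63989776 on the plus strand of chromosome 18, and its principal transcript has 28 exons and encodes 1489 residues. It measured 92.86, 120.3 and 154.1 CPM in the saline libraries and 65.98, 77.99 and 74.25 CPM in the microbead libraries. The groups did not overlap, but the saline values were spread far more widely than the microbead values, with coefficients of variation of 25.1% and 8.45%. The means were 122.4 ± 30.7 and 72.74 ± 6.14 CPM (SD, n = 3 each), with a log2 fold change of -0.75, a standard error of 0.21 and a 95% interval of -1.22 to -0.29. Saline replicate 1, the lowest of its group, also had the lowest summed retinal ganglion cell markers, 379 CPM against 865 to 1232 CPM in the other 5 libraries. Saline replicate 3, the highest, had 274 CPM of lens markers against at most 20.3 CPM elsewhere. Saline replicate 3 also had the highest sums of Muller glia (7807 CPM) and pigment epithelium markers (241 CPM), and saline replicate 1 of microglia and macrophage markers (164 CPM). The part of these features in the *Wdr7* level was not tested. The log2 fold change was -0.92 without saline replicate 1 and -0.55 without saline replicate 3. Leaving out the lowest or the highest saline value must shift it in these directions, so these values say nothing about the features.

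The alpha genes varied among the microbead libraries. *Dmxl2*, the form best known from neurons, measured 269.4, 286.8 and 319.5 CPM in saline and 179.4, 302.0 and 223.0 CPM in microbead retina. Microbead replicate 2 fell inside the saline range while the other two microbead libraries lay below it. The means were 291.9 ± 25.4 and 234.8 ± 62.2 CPM (SD, n = 3 each), and the log2 fold change was -0.31 with a standard error of 0.21 and an interval of -0.79 to 0.16. *Dmxl1* (ENSMUSG00000037416.12), its relative, spans 49832670 to 49965473 on the plus strand of chromosome 18, with 43 exons and a protein of 3013 residues. It measured 66.11, 81.65 and 80.00 CPM in saline and 59.19, 80.51 and 57.04 CPM in microbead retina. Here too microbead replicate 2 stood with the saline libraries and the groups overlapped. The means were 75.92 ± 8.53 and 65.58 ± 12.98 CPM (SD, n = 3 each), and the log2 fold change was -0.21 with a standard error of 0.19 and an interval of -0.64 to 0.22. Both intervals run from a fall to a small rise. As for the other members, the intervals describe the error of the estimate and are not read as tests.

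**Figure D1:**
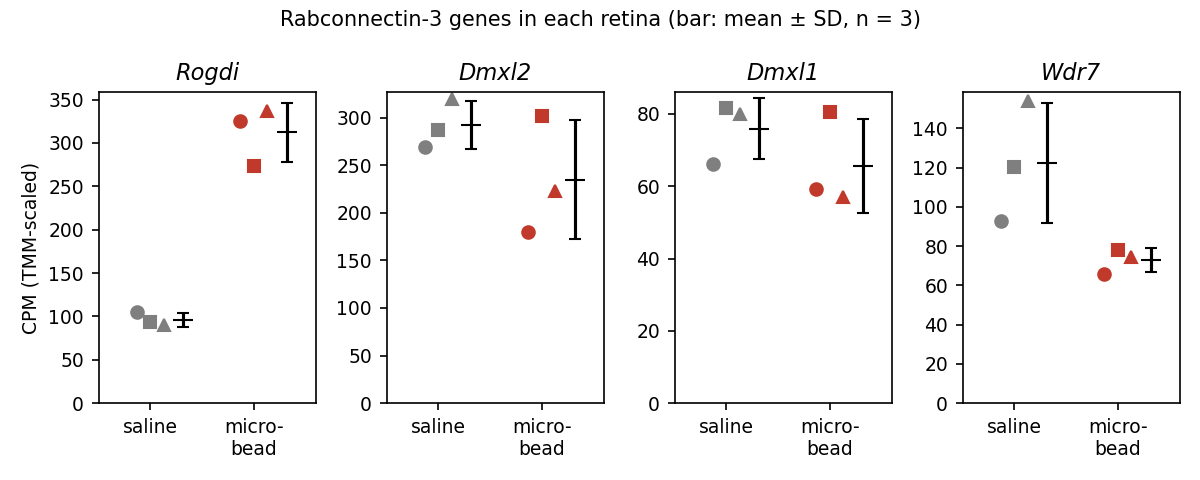
Level of each gene in CPM (linear axis from 0) in the 3 saline (grey) and 3 microbead (red) libraries, with circles, squares and triangles for replicates 1, 2 and 3 and a bar for the mean ± SD. *Rogdi* lies between 89.99 and 104.9 CPM in saline and between 273.7 and 337.3 CPM in microbead retina, *Wdr7* is lower without overlap, and *Dmxl2* and *Dmxl1* overlap through microbead replicate 2.

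Over all genes tested, edgeR's quasi-likelihood test called 12.8% at an adjusted p under 0.05, with 6.46% higher and 6.31% lower after microbead injection. In 37.8% of all genes the groups did not overlap, as in 2 of the 4 members (*Rogdi* and *Wdr7*). Nothing is read from this count, and no call is given for the members, since this contrast chose them. The direction of all 4 genes was kept in the 16 fits made.

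**Figure D2:**
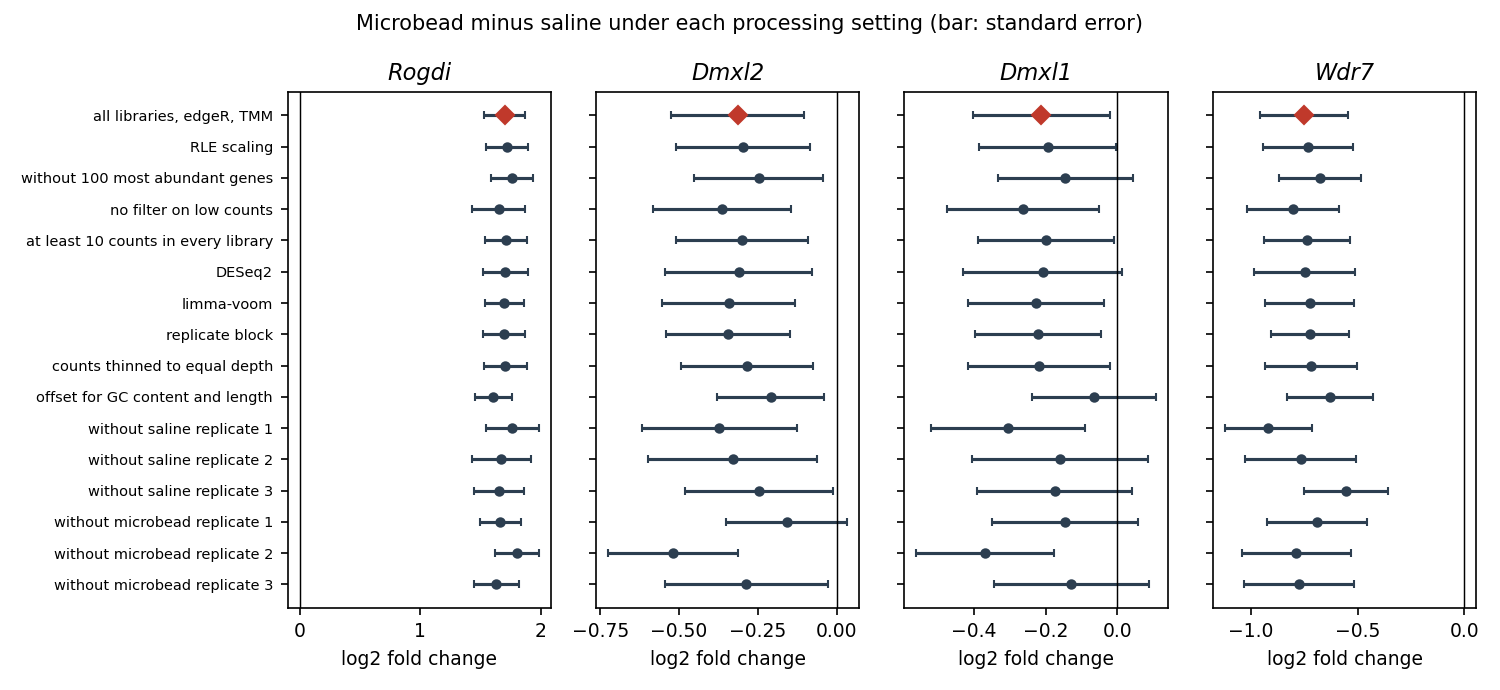
Log2 fold change (microbead minus saline) of each gene under 16 settings of scaling, filter, test and libraries, with the standard error as a bar, the reported value as a red diamond and a scale of its own for each gene. *Rogdi* stays between 1.61 and 1.81 and *Wdr7* between -0.92 and -0.55, while *Dmxl2* and *Dmxl1* lie nearer to 0, at -0.16 and -0.07 where they are closest.

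To compare the members with each other, the CPM were divided by the summed exon length of each gene. In saline retina the level per length was highest for *Rogdi*, at 40.96 ± 3.36 CPM per kilobase, followed by *Dmxl2* at 21.97 ± 1.91, *Wdr7* at 12.02 ± 3.01 and *Dmxl1* at 3.46 ± 0.389 (SD, n = 3 each). The ranges of neighbours in this order did not overlap, with 38.41 to 44.77, 20.28 to 24.05, 9.11 to 15.13 and 3.02 to 3.72 CPM per kilobase. In microbead retina the order was the same, with 133.2 ± 14.4 for *Rogdi*, 17.67 ± 4.68 for *Dmxl2*, 7.14 ± 0.603 for *Wdr7* and 2.99 ± 0.592 CPM per kilobase for *Dmxl1*. *Dmxl2*, in the range of 13.50 to 22.74, again lay above *Wdr7*, in the range of 6.48 to 7.65. The step between *Dmxl2* and *Wdr7* depends on the length used. Per kilobase of coding sequence, the saline ranges of both genes overlapped, from 29.41 to 34.87 and from 20.79 to 34.50 CPM, while *Rogdi* stayed highest (104.5 to 121.8) and *Dmxl1* lowest (7.31 to 9.03).

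**Figure D3:**
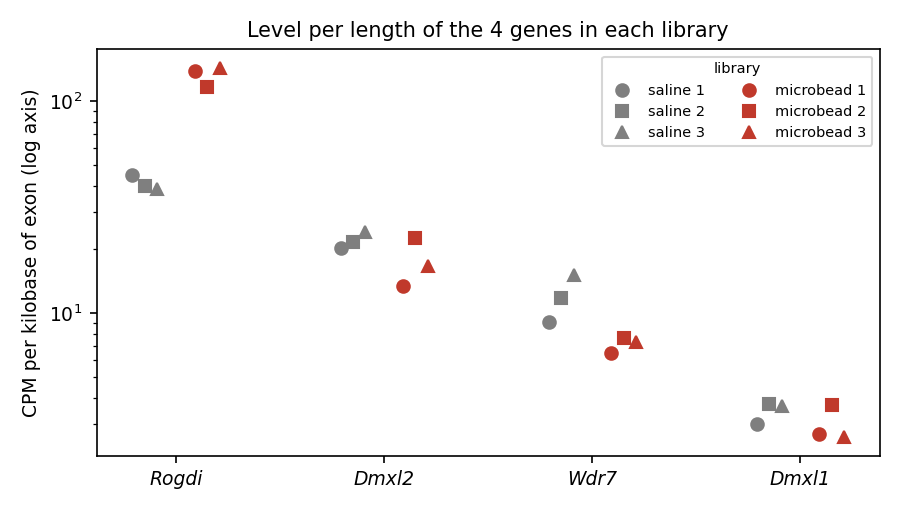
Level of the 4 genes in CPM per kilobase of summed exon (log axis) in each saline (grey) and microbead (red) library. The order *Rogdi*, *Dmxl2*, *Wdr7*, *Dmxl1* holds in both groups, and *Rogdi* moves away from the others in microbead retina, from a mean of 40.96 to a mean of 133.2 CPM per kilobase.

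The makeup of the gene set therefore differed between the groups. The shares are parts of a whole, so a higher share of *Rogdi* lowers the others, and their falls are not separate results. Of the summed level per length of the 4 genes, *Rogdi* made up 52.3 ± 5.39% in saline and 82.6 ± 4.54% in microbead retina (SD, n = 3 each). The share of *Dmxl2* was 27.99 ± 1.67% and 11.1 ± 3.53%, that of *Wdr7* 15.3 ± 3.41% and 4.45 ± 0.554%, and that of *Dmxl1* 4.42 ± 0.475% and 1.88 ± 0.488%. Per coding length the share of *Dmxl2* was smaller, 17.8 ± 1.34% and 6.32 ± 2.14%, and that of *Rogdi* larger, 62.3 ± 5.396% and 87.9 ± 3.19%. The ratio of *Rogdi* to *Dmxl2*, per length, was 2.21, 1.84 and 1.597 in saline and 10.3, 5.14 and 8.58 in microbead libraries. The ratio of *Rogdi* to *Wdr7* was 4.91, 3.36 and 2.54 in saline and 21.4, 15.3 and 19.8 in microbead libraries. Both ratios were higher in every microbead library, which follows from the differences above. The ratio between the alpha genes, *Dmxl2* to *Dmxl1*, was instead much alike in all libraries, 6.72, 5.80 and 6.59 in saline and 5.001, 6.19 and 6.45 in microbead retina, with overlapping groups.

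The members' patterns over the 6 libraries were compared by the root mean square (RMS) difference of their centred log2 levels, where 0 is the same pattern. *Dmxl1* and *Dmxl2* were the closest pair at 0.145, followed by *Dmxl2* and *Wdr7* at 0.280 and *Dmxl1* and *Wdr7* at 0.312. *Rogdi* differed from each of them by 1.00 to 1.25. Among 15084 genes that averaged 1 CPM or more, the nearest to *Wdr7* was *Syt1*, which encodes the calcium sensor of synaptic vesicle release (0.0463), then *Papss1* (0.0551) and *Gnl3l* (0.0585). *Dmxl2* lay nearest to *Srgap2* (0.0543), *Rybp* (0.0560) and *Zfp664* (0.0585), and *Dmxl1* to *Rassf4* (0.0532), *Epm2aip1* (0.0580) and *Kif21a* (0.0604). The nearest genes to *Rogdi* were less alike and far less abundant than it: *3110083C13Rik* (0.0785, at a mean of 2.74 CPM), *A430057M04Rik* (0.0830, at 1.24 CPM) and *Efcab12* (0.0990, at 7.18 CPM). The log2 fold changes of *3110083C13Rik*, *A430057M04Rik* and *Efcab12* were larger, at 2.11, 2.91 and 1.90, against 1.70 for *Rogdi*. The measure adds a fixed offset to the CPM, which narrows differences at low levels. The nearness of these low genes to *Rogdi* therefore need not mean a like fold change. The measure also includes the difference between the groups, so all the likenesses given here are descriptions.

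Transcripts that overlap a member could add reads to it. The antisense gene *Gm42477* overlaps *Rogdi* over 4689 bases, 240 of them in exons, and is the only gene that shares 31-base stretches with it (7.31% of the stretches of *Rogdi*, and 1.65% at 100 bases). *Gm42477* itself had 15, 13 and 0 counts in saline and 0, 5 and 0 in microbead libraries, against at least 3154 counts of *Rogdi* in each. *Txnl1*, which encodes a thioredoxin-like protein, starts 116 bases from *Wdr7* on the other strand and overlaps it by 117 exonic bases. *Txnl1* measured 67.04, 75.20 and 94.32 CPM in saline and 66.08, 45.42 and 40.34 CPM in microbead retina (log2 fold change -0.64, edgeR, adjusted p = 0.0885). The small nuclear RNA *Gm24384* lies inside *Wdr7* with 0 exonic bases in common. *Dmxl2* and *Dmxl1* overlap no other gene of the count table, the only genes searched for overlaps and near starts. The nearest starts among these genes are those of *Sh2d7*, 37358 bases from *Dmxl2*, and *Gm16283*, 76876 bases from *Dmxl1*. Of the 100-base stretches of *Dmxl2*, *Dmxl1* and *Wdr7*, 0%, 0% and 0.277% occur in another gene.

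The members also stand toward opposite ends of gene length, and log2 fold changes of protein-coding genes varied with length. The parts of injection, library depth and mitochondrial share in this trend were not tested. Among 14568 protein-coding genes, sorted by exon length into 10 bins of like size, the median log2 fold change was 0.13 in bin 1, the shortest, and -0.18 in bin 10, the longest. *Rogdi* falls in bin 2, with a median of 0.04 and quartiles of -0.39 and 0.45, and its 1.70 lay above these. *Wdr7*, *Dmxl2* and *Dmxl1* all fall in bin 10, with quartiles of -0.49 and 0.13. The values of *Dmxl2* (-0.31) and *Dmxl1* (-0.21) lay between these quartiles and that of *Wdr7* (-0.75) below both. With an offset for GC content and length, the log2 fold changes were 1.61 for *Rogdi*, -0.63 for *Wdr7*, -0.21 for *Dmxl2* and -0.07 for *Dmxl1*.

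**Figure D4:**
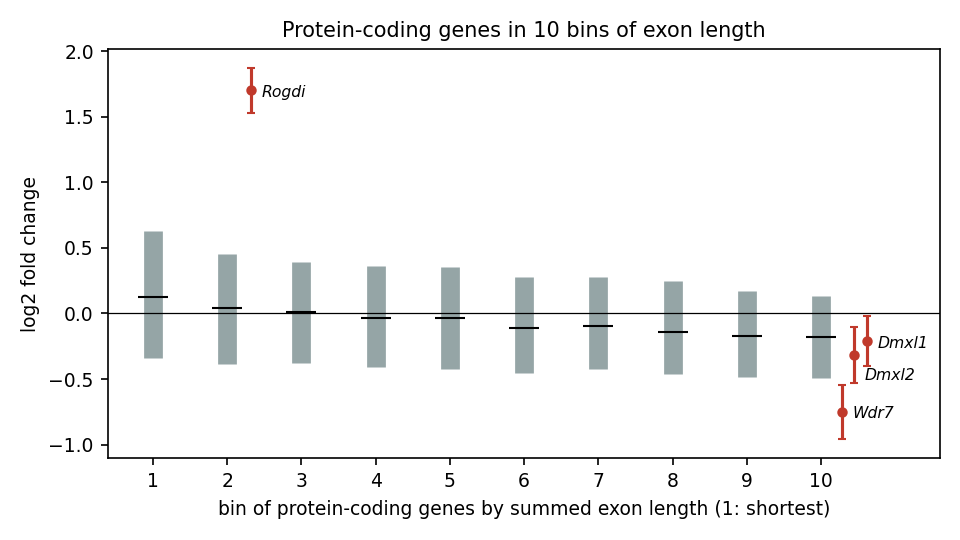
Log2 fold change of protein-coding genes in 10 bins of summed exon length (black line: median, grey bar: from lower to upper quartile), with the 4 genes beside their bin (red, with standard error). The medians run from 0.13 in the shortest to -0.18 in the longest bin. *Rogdi* at 1.70 is above the quartiles of its bin, and *Dmxl2* and *Dmxl1* are between those of theirs.

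The partners of the complex were examined with lists of related genes, read against the 12.8% called over all genes and an overall median log2 fold change of -0.03. Among V1 subunits, the sector that the complex helps to attach, 2 of the 9 tested rose, 3 fell and 4 did not pass the test, with a median log2 fold change of -0.36. *Atp6v1b2*, the most abundant V1 gene and part of the ATP-splitting ring, measured 509.5, 588.8 and 749.6 CPM in saline and 332.3, 271.2 and 283.8 CPM in microbead retina. It fell by 1.06 on the log2 scale with a standard error of 0.20 (edgeR, adjusted p = 0.0161). *Atp6v1a*, the catalytic subunit of that ring, fell by 0.94 ± 0.25 (SE; edgeR, adjusted p = 0.0389), and *Atp6v1h*, a regulator of the pump's activity, fell by 1.00 ± 0.21 (SE; edgeR, adjusted p = 0.0218). The subunits that rose belong to the stalks of the pump, but the values of other stalk subunits were negative. *Atp6v1e1* and *Atp6v1g1* stood at -0.68 and -0.36 (edgeR, adjusted p = 0.0736 and 0.319). *Atp6v1f* and *Atp6v1c1* stood at -0.21 and -0.09 (edgeR, adjusted p = 0.538 and 0.817). *Atp6v1g2*, a neuronal form of the outer stalk, measured 81.81, 123.5 and 149.7 CPM in saline and 330.4, 240.9 and 268.9 CPM in microbead retina, a log2 fold change of 1.24 ± 0.24 (SE; edgeR, adjusted p = 0.0174). *Atp6v1d*, of the central stalk, had a log2 fold change of 0.76 ± 0.20 (SE; edgeR, adjusted p = 0.0411). *Atp6v1b1*, *Atp6v1c2* and *Atp6v1e2* were too low to test, and *Atp6v1g3* was not analysed here. Leaving out a single library changed the V1 calls, as it did the calls over all genes (26 higher and 20 lower without microbead replicate 3). Over all alternative fits the log2 fold changes stayed at -1.18 to -0.89 for *Atp6v1b2* and 1.03 to 1.45 for *Atp6v1g2*. Those of *Atp6v1h* stayed at -1.15 to -0.80. Without microbead replicate 3 or saline replicate 2, edgeR called 0 V1 genes in either direction, without microbead replicate 1 it called 0 higher, and without microbead replicate 2 it called 0 lower. With the offset for GC content and length, 2 V1 genes were called lower, as *Atp6v1h* (-0.89, edgeR, adjusted p = 0.0640) no longer passed.

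In the V0 sector, 0 of the 11 subunits tested passed edgeR's test in either direction, with log2 fold changes from -0.50 to 0.57 and a median of -0.11. DESeq2 also called 0 of them, against 1821 higher and 1800 lower among the 20270 genes it tested. An unadjusted p under 0.05 from edgeR was found for 1 (*Atp6v0b*, at 0.57), as for 5564 of all 17707 genes tested. *Atp6v0e2*, the most abundant of them, had a log2 fold change of -0.26 (edgeR, adjusted p = 0.386). Of the 6 factors that assemble V0 or act on the pump, 1 fell and 5 did not pass, with a median of -0.25. *Tmem9*, a lysosomal membrane protein that binds the pump, fell by 0.64 ± 0.17 (SE; edgeR, adjusted p = 0.0400), a call lost when any 1 of the 6 libraries was left out. *Skp1a*, the most abundant factor and a subunit of RAVE in yeast, had a log2 fold change of -0.45 (edgeR, adjusted p = 0.227). *Tmem199* and *Ccdc115*, which help to build V0 in the endoplasmic reticulum, stood at 0.66 and 0.81 (edgeR, adjusted p = 0.0510 and 0.0682). TLDc domain proteins, some of which bind the V-ATPase, gave 0 calls among 4 tested with edgeR or DESeq2 and 0 at an unadjusted p under 0.05, and the most abundant, *Tbc1d24*, had a log2 fold change of -0.24.

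Among 9 genes of the Rab3 cycle, whose regulators bind rabconnectin-3, 1 fell and 8 did not pass, with a median of -0.31. *Rab3a*, a GTPase of synaptic vesicles, measured 12.54, 19.85 and 22.97 CPM in saline and 8.13, 10.76 and 6.69 CPM in microbead retina. It fell by 1.11 ± 0.29 (SE; edgeR, adjusted p = 0.0364). The groups did not overlap for 5 of the 9 Rab3 genes, *Rab3a* and *Madd* among them, against 37.8% of all genes tested. With 1 library left out, *Rab3a* passed only without saline replicate 1 and its values ran from -1.33 to -0.93. *Madd*, the exchange factor of Rab3 and the most abundant of the list, had a log2 fold change of -0.32 (edgeR, adjusted p = 0.245). Of the 7 vesicular transmitter transporters tested, which use the proton gradient, 0 passed the test of edgeR or DESeq2. An unadjusted p under 0.05 from edgeR was found for 2 of the 7 (*Slc17a7* and *Slc32a1*). The same held for 5564 of all 17707 genes tested, and nothing is read from this count. The median of the 7 transporters was -0.35. *Slc17a7*, the vesicular glutamate transporter of photoreceptors and bipolar cells, stood at -0.42 (edgeR, adjusted p = 0.154). Of 14 core proteins of synaptic vesicles and their fusion machinery, 1 rose, 1 fell and 12 did not pass, with a median of -0.10. *Vamp2*, a vesicle SNARE, rose by 0.78 ± 0.17 (SE; edgeR, adjusted p = 0.0247), and *Syt1* fell by 0.72 ± 0.21 (SE; edgeR, adjusted p = 0.0487). The *Syt1* call was lost under RLE scaling, with an offset for GC content and length, and without any library but saline replicate 1, with values from -0.75 to -0.56 where a library was left out and the call was lost. The *Vamp2* call was lost without saline replicate 2 or any 1 microbead library, where the log2 fold change was still 0.71 to 0.83. *Snap25*, the most abundant of this list, had a log2 fold change of 0.25 (edgeR, adjusted p = 0.515).

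**Figure D5:**
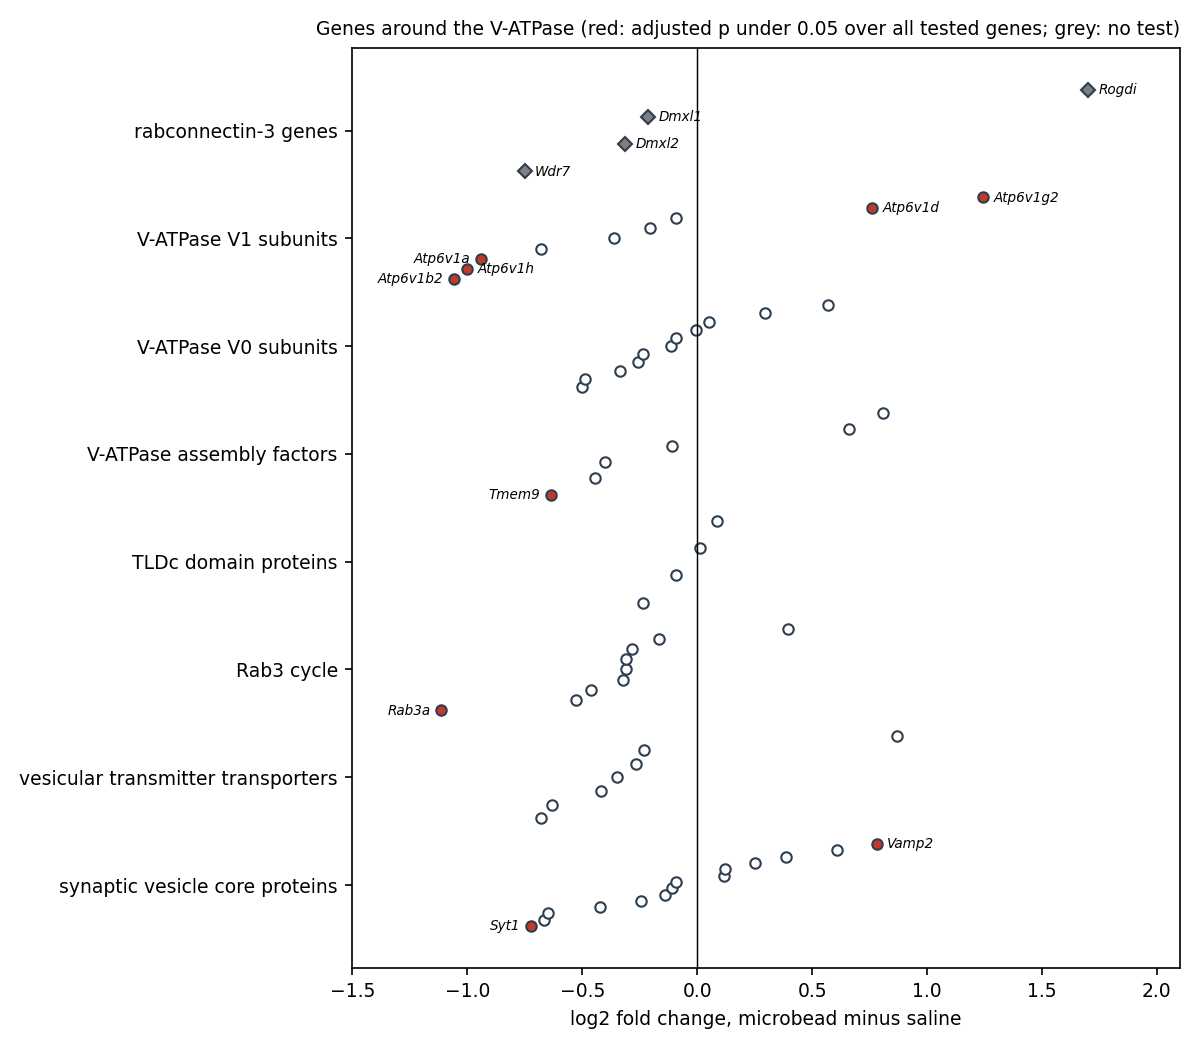
Log2 fold change (microbead minus saline) of the 4 rabconnectin-3 genes (grey diamonds, no test) and of the tested genes of 7 related lists (circles, red where edgeR gave an adjusted p under 0.05). *Rogdi* lies at 1.70, above every other gene shown, V1 subunits reach from -1.06 to 1.24, and V0 subunits lie between -0.50 and 0.57.

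Markers of other retinal cells were set beside these values. Summed horizontal cell markers were lower in every microbead library (97.6 to 149 CPM in saline, 54.0 to 93.0 in microbead), and astrocyte markers were higher in every one (35.2 to 53.0 and 55.0 to 65.6 CPM). The sums of the other marker lists overlapped between the groups. Their part in the values of the 4 genes was not tested.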

How the data were processed

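Poly(A) RNA of whole retina from 3 saline and 3 microbead libraries was analysed, grouped by the treatment in the sample records, with replicates numbered in accession order. Per the labels and the submitters' processing notes, the authors aligned reads with STAR 2.5.3a to GRCm38.p5, counted them on GENCODE vM12 genes with featureCounts 1.15.2 and deposited the raw count of each gene in each library. How strand and multi-mapping reads were handled is not given in the sources used here. The deposited table also holds the authors' DESeq2 1.14 comparison (mean normalized count, log2 fold change, fold change, p-value, adjusted p-value and a call), which was not used. The number of unmapped columns of per-sample values was 0.

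Genes with low counts were removed by filterByExpr (at least 10 counts, total of at least 15), and the rest was scaled by TMM and compared with edgeR 4.0.16 in R 4.3.3 by the quasi-likelihood test, two-sided, with Benjamini-Hochberg adjustment over all genes and a threshold of 0.05. Total counts ran from 13574949 to 46481382. CPM use the TMM-scaled size. Floors and counting errors cover counting error only. Annotation came from GENCODE vM21 and promoters from RefSeq. Likeness used log2(CPM + 0.5). In each pair of libraries of a group, chi-square per degree of freedom was 22.0 or more, well above sampling noise, so none is a duplicate of another.

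The members and all lists were chosen with earlier results of these data known. The genes named are the members, the most abundant and up to 3 called genes of each list, the 3 genes nearest in pattern to each member, and overlapping or nearest genes. *Atp6v1a*, *Atp6v1d*, *Atp6v1e1*, *Atp6v1g1*, *Atp6v1f*, *Atp6v1c1*, *Atp6v0b*, *Slc32a1*, *Tmem199* and *Ccdc115* were chosen after their values were seen. Alternatives were DESeq2 1.42.0, limma-voom (limma 3.58.1), a replicate block, thinning to 13574949 counts, RLE scaling, scaling without the 100 most abundant genes, a filter of 10 counts in each library, an unfiltered fit, coding length in place of exon length, and the removal of single libraries. An offset for GC content and length (splines with 5 degrees of freedom) was added after seeing the data. The steps were tested on simulated data.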

Additional observations from a re-analysis of the deposited data

How the results depend on the processing

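The directions of the 4 members and of 13 genes named from the lists were kept in every fit listed in the methods, and 0 of these values reversed. These 13 do not include the list genes chosen after their values were seen, which were not followed over the fits. Leaving out 1 library gave 1.63 to 1.81 for *Rogdi*, -0.92 to -0.55 for *Wdr7*, -0.52 to -0.16 for *Dmxl2* and -0.37 to -0.13 for *Dmxl1*. Of 1143 genes called higher and 1118 called lower, DESeq2 gave 1821 and 1800, and the counts ranged over single libraries left out from 26 to 1356 and from 20 to 1265, lowest without microbead replicate 3. They were also low without saline replicate 2 (142 and 151), microbead replicate 1 (371 and 377) and microbead replicate 2 (436 and 332), and fell to 760 and 720 without saline replicate 3. Without a filter, 2209 genes were called lower. At an unadjusted p under 0.05, 5564 genes passed.

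The replicate block gave 480 higher and 425 lower, and values of 1.70, -0.72, -0.34 and -0.22 for *Rogdi*, *Wdr7*, *Dmxl2* and *Dmxl1*. The numbers follow accession order, and no pairing of the libraries is given. The deviations of same-numbered libraries correlated at -0.02, 0.17 and 0.01, but 3 libraries per group are too few to exclude a pairing. In the block, V1 calls went from 2 higher and 3 lower to 1 and 1, and the single lower calls of assembly factors, Rab3 genes and synaptic vesicle proteins to 0.

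With 1 library left out, V1 calls ranged from 0 to 1 higher and from 0 to 4 lower, those of assembly factors were 0, Rab3 genes 0 to 1 lower, vesicular transporters 0 to 3 lower (3 without saline replicate 1), and synaptic vesicle proteins 0 to 1 higher and 0 to 3 lower. The assembly factors had 0 higher calls, against 2 with DESeq2 and 1 each under RLE scaling, thinning, a filter of 10 counts in each library, scaling without the 100 most abundant genes, and an unfiltered fit. Their lower call became 0 under scaling without the 100 most abundant genes and under thinning. The Rab3 call (*Rab3a*) became 0 with limma-voom. The lower call of synaptic vesicle proteins (*Syt1*) became 0 under RLE scaling, scaling without the 100 most abundant genes, limma-voom and the GC and length offset, and 3 without a filter, where vesicular transporters had 1. The causes were not tested. Per coding length, 12 of 16 levels and shares of levels per length moved by more than their spread.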
